A study of Rattus norvegicus with 39 samples.

Results

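RNAcentral, a public catalogue that gives each noncoding RNA sequence an identifier and a class, files sequences that fit no named class under otherRNA or miscRNA. The entries described here were the 200 rows with the largest summed count over 39 rat sperm libraries among the otherRNA and miscRNA rows of the deposited RNAcentral table. They were 197 otherRNA and 3 miscRNA rows, out of 10534 and 11 rows of those classes and 78572 rows in all. Rows whose counts were the same in every library were treated as 1, which left 184 distinct entries (181 otherRNA and 3 miscRNA). They are numbered from 1, the largest summed count, to 184. The members were chosen by their summed counts alone: the last rows taken (ranks 199 and 200) had 562 counts each and the first row not taken had 561. The names of the rows carried an identifier and a class and no kind of RNA, and the files paired no identifier with a gene name or a sequence, so the entries are described by number.

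The libraries were small RNA from sperm of the cauda epididymis, the storage end of the duct that follows the testis, and each came from 1 wild-type male Fischer rat aged 11 to 12 weeks. Males were gavaged daily for 5 days with EGME (ethylene glycol monomethyl ether, also called 2-methoxyethanol, an industrial solvent) in water, and sperm were taken 5 weeks after dosing ended. The groups were EGME0 (water, n = 10), EGME50 (50 mg/kg/d, n = 10), EGME60 (60 mg/kg/d, n = 9) and EGME75 (75 mg/kg/d, n = 10). Libraries were run on 13 chips of 3, and no chip held more than 1 control library.

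Mature sperm carry little RNA and make almost none, and much of what is sequenced from them is fragments of longer RNAs such as ribosomal and transfer RNA. EGME is a known testicular toxicant whose metabolite methoxyacetic acid injures developing germ cells. An otherRNA or miscRNA entry is a catalogue sequence rather than a gene of known function, so a read counted on it can also match a ribosomal, long noncoding or other RNA row. Fewer cells of a type and less RNA per cell cannot be told apart in such libraries.

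The RNAcentral counts per library ran from 98123 to 12856657, with a median of 2584766. Pooled over libraries they were 19358661 in EGME0, 24082695 in EGME50, 44012967 in EGME60 and 33114673 in EGME75. The summed counts that chose the members were not scaled for this. A row high in dosed libraries could therefore enter more easily than a row high in control. Values below are counts scaled to 1e6 RNAcentral counts in a library (CPM), and fold changes are log2 values from edgeR after TMM scaling, which corrects for a few RNAs that take up much of a library. The 2 scales differed: the median TMM factor was 1.395 in EGME0, 1.452 in EGME50, 0.765 in EGME60 and 0.668 in EGME75, so a fold change at the higher doses lies above the ratio of the CPM. The factors also varied within groups. They ran from 0.961 to 1.937 in EGME0, 0.495 to 2.467 in EGME50, 0.228 to 2.304 in EGME60 and 0.212 to 2.262 in EGME75. The rRNA rows held 44.0% of the counts in EGME0, 44.0% in EGME50, 55.6% in EGME60 and 72.5% in EGME75 on average. Germ cell miRNAs (6 of 6 in the miRNA table, with miR-449c-5p at 0 in EGME0) held a median of 26.3% of the miRNA counts in EGME0, so the labelled cell type had its markers, and 21.5%, 15.3% and 13.3% in EGME50, EGME60 and EGME75.

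The members were uneven in size. Their mean level over the 39 libraries ran from 3.5 to 11703 CPM, with a median of 16 CPM. Entry 1 alone held 28.7% of all otherRNA counts, and the 7 rows of entries 2 to 7, 2 of them identical, together held 29.9%. The 197 otherRNA rows held 93.82% of the counts of their class and the 3 miscRNA rows 97.78%. A count was found in all 39 libraries for 65 of the 184 entries and in at least 30 libraries for 175, and the sparsest entry had counts in 19. The library with the most counts of an entry held a median of 10.8% of them, but over 50% for 2 entries and over 25% for 21.

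Several entries were close to copies of each other. The difference between 2 entries was the summed absolute difference of their counts over the libraries, as a percentage of the smaller of their 2 summed counts. For a row of another class it was taken as a percentage of the entry's own summed count. At a limit of 5%, the 184 entries formed 152 families, of which 18 had 2 or more entries (50 entries). Both largest families had 6 entries, numbers 2 to 7 (184028 to 184103 counts each) and numbers 36 to 41 (8331 to 8673). Reads on such entries cannot be assigned to 1 of them, so the numbers of entries called at each dose are given with numbers of families.

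At EGME75, 45 of 180 otherRNA entries tested were higher than in control (25%, against 19.8% of all 2757 RNAcentral entries tested) and 25 were lower (13.9%, against 18% of all). In either direction 37.8% of all entries tested were called, and 38.9% of the otherRNA entries. The median log2 fold change of the otherRNA entries was −0.57 and that of all entries tested −0.62. By family, 36 of 149 were higher and 16 lower. The 180 were the distinct otherRNA entries that passed the filter on low counts, and entry 175 did not pass. Each test was edgeR's quasi-likelihood test with Benjamini-Hochberg adjustment over all 2757 entries and a threshold of 0.05. These shares were near those of the whole table, and the choice of members by unscaled counts can favour entries that rose over entries that fell. The split depended on the scaling: 39 higher and 99 lower with RLE factors (DESeq2's kind of size factor), and 36 higher and 70 lower with library totals alone. Of the entries called with TMM, 36 of the 45 higher and all 25 lower were called the same way under all 3 scalings.

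**Figure D1:**
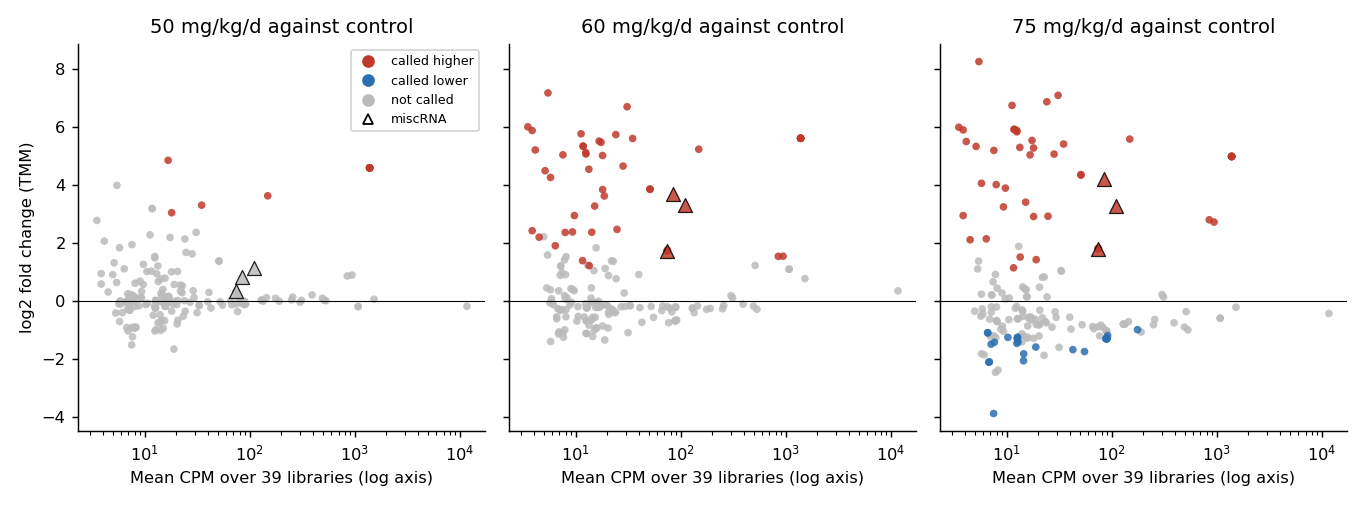
Log2 fold change (TMM) of each tested entry against control at 50, 60 and 75 mg/kg/d, plotted over its mean CPM in 39 libraries on a log axis. Circles are otherRNA and triangles miscRNA entries; red and blue mark calls at an adjusted p below 0.05. Calls were 10 higher at EGME50, 46 higher at EGME60, and 45 higher with 25 lower at EGME75 among otherRNA entries.

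The entries that rose at EGME75 did so by large factors on the TMM scale. Their log2 fold changes ran from 1.13 to 8.24 with a median of 4.97, and in 30 of the 45 every EGME75 library lay above the control median. The 45 were called from these same libraries, so the count of 30 is partly built in. Its share over all entries tested was not counted. Groups did not overlap, with every EGME75 library above every control library in CPM, for 23 of the 180 otherRNA entries. Of all 2757 entries tested this held for 220 (7.98%). Entries 2 to 7, near copies that form 1 family, are 6 of the 23 and of the 30, and the median of 4.97 lies at their value. Neither count was made by family. At EGME60 all 45 had a positive fold change (median 5.01) and at EGME50 44 did (median 1.62); the 3 comparisons share their control libraries.

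The most abundant family that rose was entries 2 to 7, shown by entry 2 (URS0000CD0A72). In EGME0 it ran from 23 to 442 CPM with a median of 96.5, and in EGME50 from 165 to 16079 with a median of 628. In EGME60 it ran from 84.8 to 6367 CPM with a median of 1131, and in EGME75 from 493 to 2809 with a median of 1672. Every EGME75 library lay above every control library, while EGME50 and EGME60 overlapped the controls and each had 1 library far above its group. The log2 fold change was 4.58 (SE 0.91, adjusted p = 0.00238) at EGME50, 5.60 (SE 0.96, adjusted p = 9.79e-06) at EGME60 and 4.97 (SE 0.92, adjusted p = 2.04e-05) at EGME75. At EGME50 the call rested on replicate 36: without it the log2 fold change was 2.19 and no longer passed the threshold.

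**Figure D2:**
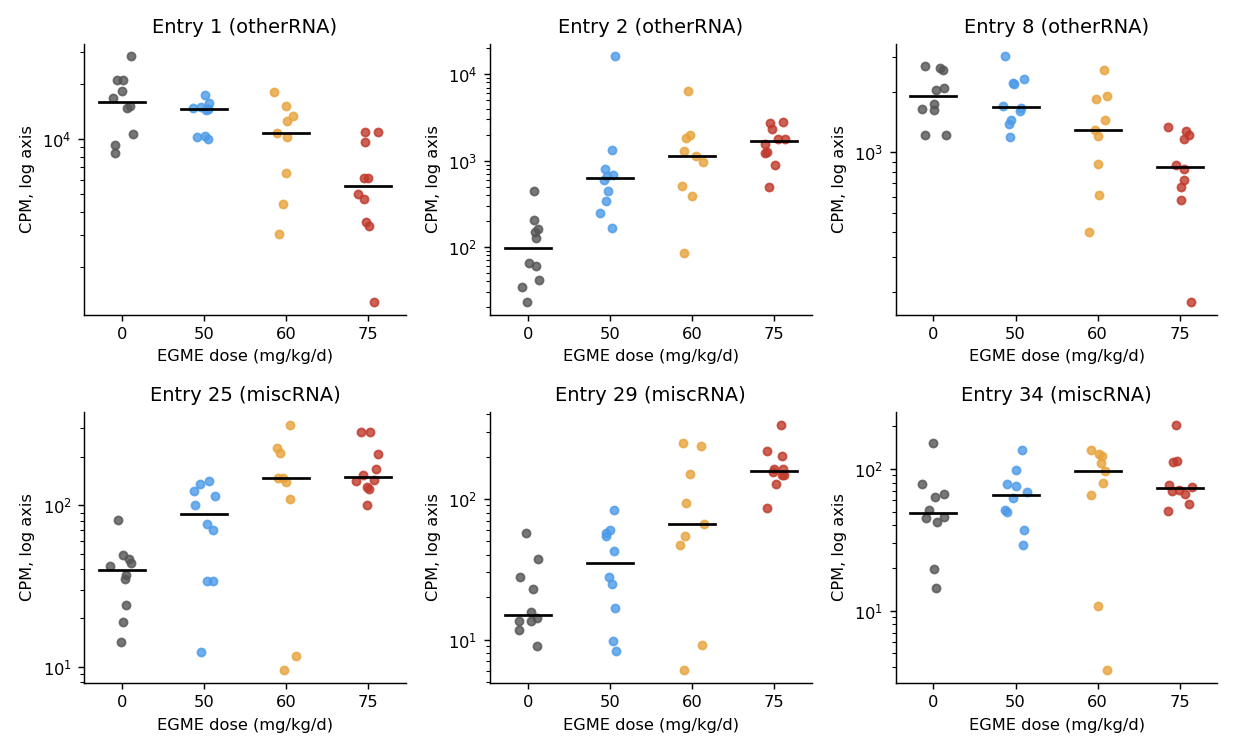
CPM of 6 entries in every library by dose, on log axes; each point is 1 male and each bar the group median. Entries 1 and 8 had lower medians at 75 mg/kg/d than in control, while the EGME75 libraries of entries 2, 25 and 29 all lie above the controls and those of entry 34 overlap them.

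Entries 57 and 59 were nearly absent in control, so they passed the filter on low counts, and entered the list, through the dosed libraries. Their low control level and their rise are therefore not independent of that choice. Entry 57 ran from 0 to 3.80 CPM in EGME0 (median 0.768), from 0.757 to 20.3 in EGME50 (median 3.17), from 0.860 to 57.8 in EGME60 (median 10.2) and from 19.9 to 135 in EGME75 (median 54.9). Its groups did not overlap at EGME75, where the log2 fold change was 6.86 (SE 0.90, adjusted p = 7.04e-07), after 5.73 at EGME60 (adjusted p = 4.75e-06) and 2.13 at EGME50 (adjusted p = 0.210). Entry 59 ran from 0 to 3.83 CPM in EGME0 (median 0.444), from 0 to 10.0 in EGME50 (median 4.28), from 0 to 77.9 in EGME60 (median 5.05) and from 21 to 499 in EGME75 (median 37.0). It too did not overlap control at EGME75, with a log2 fold change of 7.08 (SE 1.08, adjusted p = 1.13e-06).

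Entry 108 followed the same order at a lower level, from 0 to 1.86 CPM in EGME0 (median 0.444) to 12.2 to 65.1 in EGME75 (median 24.7), again without overlap. Its log2 fold change at EGME75 was 6.73 (SE 0.95, adjusted p = 7.04e-07). Entries 139 and 183, both with a control median of 0, had log2 fold changes of 8.24 (adjusted p = 1.40e-06) and 5.98 (adjusted p = 5.42e-06) at EGME75. Fitted values of that kind depend on few control counts. Entries 108, 139 and 183 also passed the filter, and entered the list, through the dosed libraries, so their rise is not independent of that choice. The control libraries together held 1 count of entry 139, 4 of entry 183 and 10 of entry 108, against 560, 216 and 846 in EGME75. The pooled ratios of counts per total were 327 (95% interval 58.5 to 13000), 31.6 (12.2 to 117) and 49.5 (26.8 to 104), with exact intervals that cover counting error only. Both groups overlapped for entries 139 and 183, each of which was at 0 in at least 1 EGME75 library.

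The rise of these entries went with other changes in the libraries. The mean rRNA share of the counts was larger at EGME60 and EGME75 than in control (above). Of 235 rRNA rows tested, 173 were called higher and 56 lower at EGME75, so the rRNA rows did not all rise. At EGME60, 171 were called higher and 2 lower. Entries 47 and 48, with log2 fold changes of 4.33 and 4.35 at EGME75, had counts within 6.26% and 6.22% of an rRNA row. Blood cell miRNAs (6 of 7 in the table, with miR-144-3p at 0 in EGME0, EGME50 and EGME75) held 0 to 0.343% of the miRNA counts in EGME0, 0.119 to 1.24% in EGME50, 0.0216 to 2.17% in EGME60 and 0.248 to 4.82% in EGME75. Epithelium and muscle miRNAs (9 of 9, with miR-1-3p at 0 in the dosed groups) held 1.63 to 3.92%, 1.56 to 7.91%, 1.56 to 13.1% and 3.59 to 13.2%. The part of rRNA fragments or of other cells in the result was not tested.

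The 25 otherRNA entries lower at EGME75 changed less, with log2 fold changes from −3.89 to −1.0 and a median of −1.32. In 24 of them every EGME75 library lay below the control median in CPM, but none had all EGME75 libraries below all controls (1.41% of all entries tested did). The first count is not particular to called entries. Entries 1, 8 and 13, which were not called, also had all 10 EGME75 libraries below the control median. Its share over all entries tested was not counted. All 25 had a negative fold change at EGME60 too (median −0.68), and 23 at EGME50 (median −0.15). Entry 112 (URS0000CCEB9E) ran from 4.23 to 74.7 CPM in EGME0 (median 25.6), 6.58 to 30 in EGME50 (median 17.5), 1.49 to 23 in EGME60 (median 6.32) and 0 to 13 in EGME75 (median 2.43). The groups overlapped, and all 10 EGME75 libraries lay below the control median. The log2 fold change at EGME75 was −1.83 (SE 0.52, adjusted p = 0.00417), and the call was lost with chip as a block (−1.65, adjusted p = 0.0738) and with no filter (adjusted p = 0.0865).

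Entry 156 (URS0000CCE8F4) had the lowest fold change. It ran from 0 to 40.5 CPM in EGME0 (median 16.4), 0 to 23.5 in EGME50 (median 2.71), 0 to 48.6 in EGME60 (median 1.16) and 0 to 6.12 in EGME75 (median 0), and it was at 0 in 3 of 10 control and 6 of 10 EGME75 libraries. Its log2 fold change at EGME75 was −3.89 (SE 1.08, adjusted p = 0.00366). Entry 166 ran from 0 to 26.3 CPM in EGME0 (median 11.3) and from 0 to 3.82 in EGME75 (median 1.23), with a log2 fold change of −2.11 (SE 0.58, adjusted p = 0.00350), a call lost with chip as a block (adjusted p = 0.0649). Entry 160 had a log2 fold change of −2.12 at an adjusted p of 0.0465, and 16 of the 20 fits that left out 1 library of either group lost that call. Entry 87 went from 3.73 to 197 CPM in EGME0 (median 22.5) to 0 to 13 in EGME75 (median 5.83), and its log2 fold change was −1.59 (adjusted p = 0.0246). The 197 CPM were 1 control library, replicate 2, without which the fold change was −0.91 and not called.

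Calls kept under other fits were counted in each direction. With chip as a block, 39 of the 45 higher calls at EGME75 were kept but 3 of the 25 lower. Over the fits that left out 1 library, 43 of the 45 and 5 of the 25 were kept in every fit. The number of lower calls fell to 5 without control replicate 1 and rose to 42 without control replicate 33.

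**Figure D3:**
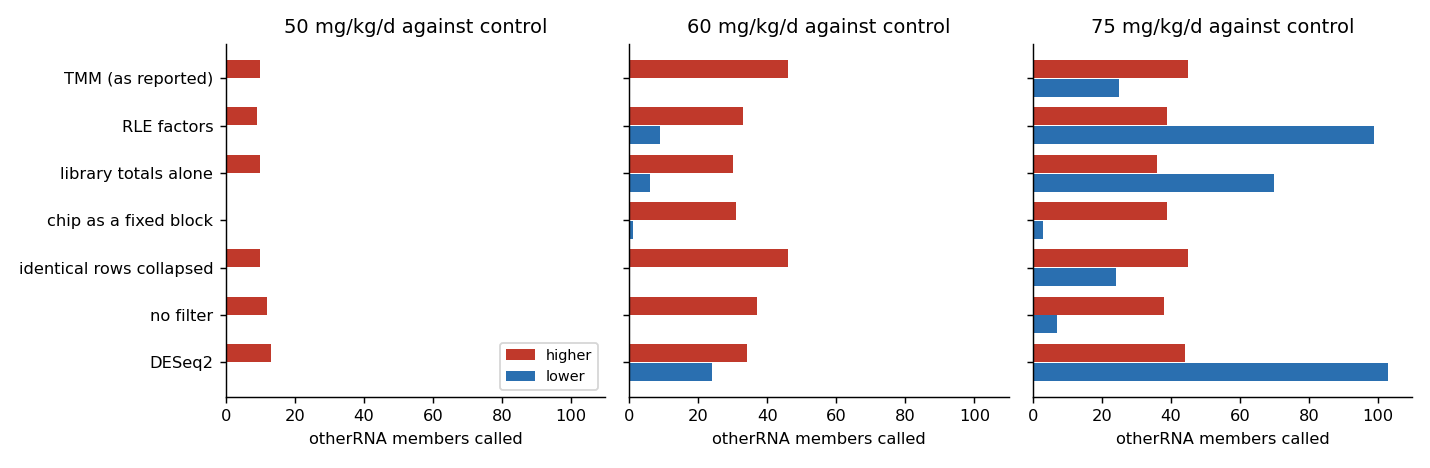
Number of distinct otherRNA entries called higher (red) or lower (blue) than control at each dose, under the reported fit and 6 alternatives. At 75 mg/kg/d the higher calls were 36 to 45, while the lower calls ran from 3 with chip as a block to 103 with DESeq2.

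Entries 1 and 8, the most abundant apart from entries 2 to 7, were not called. Entry 1 (URS0000CCEBC8) ran from 8426 to 28262 CPM in EGME0 (median 15963), 10056 to 17292 in EGME50 (median 14632), 3023 to 18019 in EGME60 (median 10790) and 1286 to 10962 in EGME75 (median 5556). The groups overlapped, with the EGME75 median the lowest. On the TMM scale its log2 fold change at EGME75 was −0.44 (SE 0.41, adjusted p = 0.376), but it was −1.42 (adjusted p = 0.000916) with library totals alone and −1.31 (adjusted p = 0.00245) with RLE factors. Entry 8 ran from 1222 to 2722 CPM in EGME0 (median 1907) and from 178 to 1336 in EGME75 (median 848), and gave −0.22 (adjusted p = 0.698) with TMM, −1.16 (adjusted p = 0.00583) with library totals and −1.04 (adjusted p = 0.0218) with RLE factors. Both entries had their lowest median CPM at EGME75, and whether the difference passed the test depended on the scaling.

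All 3 miscRNA entries were called higher at EGME60 and at EGME75 (against 20.3% and 19.8% of all entries tested), and none was called at EGME50 (1.49% of all; 1 of 3 at an unadjusted p below 0.05, none with DESeq2). Of the 3, entries 25 and 29 were also called at EGME60 and EGME75 under both other scalings, with chip as a block, with no filter and with DESeq2, while entry 34 lost calls in several of these fits, as given with its values. Their median log2 fold changes were 0.84, 3.29 and 3.28 in order of dose, where all entries tested had medians of 0.06, −0.16 and −0.62. Entry 29 (URS0000001376) ran from 9.05 to 57.1 CPM in EGME0 (median 14.9), 8.33 to 83.4 in EGME50 (median 35.3), 6.02 to 251 in EGME60 (median 66.8) and 85.8 to 339 in EGME75 (median 159). Every EGME75 library lay above every control library, and the log2 fold change was 3.67 (SE 0.66, adjusted p = 1.72e-05) at EGME60 and 4.21 (SE 0.67, adjusted p = 1.80e-06) at EGME75.

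Entry 25, the most abundant miscRNA entry, ran from 14.2 to 80.6 CPM in EGME0 (median 39.7), 12.4 to 142 in EGME50 (median 88.4), 9.46 to 316 in EGME60 (median 147) and 101 to 285 in EGME75 (median 148). It did not overlap control at EGME75 either, with log2 fold changes of 3.29 (adjusted p = 8.72e-06) at EGME60 and 3.28 (adjusted p = 3.87e-06) at EGME75. Entry 34 changed least: it ran from 14.4 to 151 CPM in EGME0 (median 48.4) and from 50.7 to 205 in EGME75 (median 72.7), with overlap. Its log2 fold change of 1.77 (adjusted p = 0.00283) at EGME75 was 0.82 (adjusted p = 0.0697) with RLE factors and 0.61 (adjusted p = 0.234) with library totals and was also lost with chip as a block (adjusted p = 0.0926) and with no filter (adjusted p = 0.122). At EGME60 its log2 fold change of 1.70 (adjusted p = 0.00612) was lost in the same fits, with DESeq2 and without EGME60 replicate 22, at adjusted p from 0.0588 to 0.555. Entries 25 and 34 had counts within 8.96% and 12.1% of an rRNA row, and otherRNA entries 33 and 35 were near copies of entry 34 (within 2.0% and 0.807%).

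At EGME60, 46 of 180 otherRNA entries were called higher (25.6%, against 20.3% of all entries tested) and none lower (0.58% of all; 20.9% in either direction). By edgeR, 6 were lower at an unadjusted p below 0.05, and DESeq2 called 24 lower. By family, 37 of 149 were higher. Their log2 fold changes ran from 1.21 to 7.16 with a median of 4.82. In 3 of the 46 every EGME60 library lay above the control median, a count whose share over all entries tested was not made. No entry was without overlap (0.0363% of all entries tested). The EGME60 libraries were widely spread: for each of the 3 miscRNA entries, 7 of 9 lay above the control median and the others below it. The counts of higher calls were 33 with RLE factors and 30 with library totals, and of lower calls 9 and 6. Whether EGME60 and EGME75 differed was not tested.

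At EGME50, 10 of 180 otherRNA entries were called higher (5.56%, against 1.49% of all entries tested) and none lower (0.0363% of all; 1.52% in either direction). The 10 belonged to 5 families, since 6 of them were entries 2 to 7. By edgeR, 28 entries were higher and 3 lower at an unadjusted p below 0.05, and DESeq2 called 13 higher and 0 lower. No entry was without overlap (0.0% of all entries tested). Entry 83 ran from 0 to 3.11 CPM in EGME0 (median 0.768) and from 0 to 223 in EGME50 (median 6.62), where the top library was again replicate 36, and its log2 fold change was 4.84 (SE 1.08, adjusted p = 0.0103). The call was lost without EGME50 replicate 36 (2.23, adjusted p = 0.335), without EGME0 replicate 2 (4.17, adjusted p = 0.0537) and with chip as a block (2.50, adjusted p = 0.402). Entry 83, nearly absent in control, passed the filter on low counts and entered the list through the dosed libraries. Without replicate 36 the number of otherRNA entries called was 2, and with chip as a block it was 0.

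Over all doses, the slope was higher for 45 otherRNA entries (25%, against 19.9% of all entries tested) and lower for 21 (11.7%, against 7.91%; 27.8% of all in either direction). By pattern of calls, 34 otherRNA entries were higher at EGME60, at EGME75 and in the slope, and 10 more at every dose. Another 16 were lower at EGME75 and in the slope, 9 at EGME75 alone, and 103 passed no test. The share of all entries tested with each pattern was not counted. The 10 include the 6 near copies 2 to 7, and none of the 10 kept its EGME50 call with chip as a block. Expressed over the full range of 75 mg/kg/d, the fitted slope in log2 units was 5.87 (adjusted p = 4.40e-05) for entry 2, 7.0 (adjusted p = 5.57e-07) for entry 57, 4.22 (adjusted p = 4.58e-06) for entry 29 and −1.68 (adjusted p = 0.00481) for entry 112. The slope of entry 112 did not pass with chip as a block (−1.44, adjusted p = 0.0893) or with no filter (adjusted p = 0.0831). Of the 21 lower slopes, 0 were kept with chip as a block and 2 in every fit that left out 1 library, against 38 and 43 of the 45 higher. All 3 miscRNA entries had a slope above 0 that passed (median 3.46), and 2 of 3 did with RLE factors, library totals, chip as a block, no filter or DESeq2, since entry 34 then did not pass (adjusted p from 0.0638 to 0.265).

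Some otherRNA entries had counts that matched a row of another class. Within the 5% limit this held for 15 distinct entries, of which 10 were nearest to a long noncoding RNA row, 2 to a miscRNA row, and 1 each to an snoRNA, an srpRNA and a microRNA row. Entry 137 had the same counts as an snoRNA row (snoRNAs guide the chemical modification of other RNAs) and was not called at EGME75, with a log2 fold change of 0.43 (adjusted p = 0.603). Entry 13 lay within 1.79% of an srpRNA row, the RNA of the signal recognition particle that directs secreted proteins to the endoplasmic reticulum, and had −0.37 (adjusted p = 0.559). Entry 121 lay within 0.154% of a microRNA precursor row and was lower at EGME75: it ran from 3.80 to 36.7 CPM in EGME0 (median 19.8) and from 0.154 to 10.2 in EGME75 (median 1.41), with a log2 fold change of −2.07 (SE 0.55, adjusted p = 0.00253). Entries 100 and 101 were within 0.128% and 0.192% of a long noncoding RNA row and rose by 5.91 at EGME75 (adjusted p = 3.06e-06). Such entries and the matching rows cannot be told apart by their counts.

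The share of each class in the RNAcentral counts was compared by permutation over males, two-sided, with adjustment over 6 comparisons. The miscRNA entries held 0.0122% ± 0.00521 (SD, n = 10) of the counts in EGME0, 0.0198% ± 0.00912 (n = 10) in EGME50, 0.0340% ± 0.0228 (n = 9) in EGME60 and 0.0447% ± 0.0167 (n = 10) in EGME75. At EGME75 all 10 libraries lay above the control median and every one above the highest control, and the permutation p was 1e-05, the smallest value that 100000 permutations allow (adjusted p = 6e-05). At EGME60 the exact permutation p was 0.00727 (adjusted p = 0.0218, 7 of 9 libraries above the control median). At EGME50 the difference did not pass by permutation (adjusted p = 0.0746).

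The otherRNA entries held 3.69% ± 0.705 (SD, n = 10) of the counts in EGME0, 4.77% ± 3.24 (n = 10) in EGME50, 3.74% ± 1.31 (n = 9) in EGME60 and 3.16% ± 0.817 (n = 10) in EGME75. No difference from control passed the test (permutation over males, adjusted permutation p = 0.486 at EGME50 and 0.217 at EGME75, exact permutation p = 0.907 at EGME60). The EGME75 result depended on what was counted. Near copies were counted once among the members only, not in the rest of the total, a choice made after the data had been seen. The share was then 3.27% ± 0.674 in EGME0 and 1.87% ± 0.644 in EGME75, lower in 10 of 10 libraries than the control median (adjusted permutation p = 0.00063). In the planned form, identical rows of a class counted once over the whole table, it was 3.61% ± 0.722 and 2.83% ± 0.764. That difference did not pass (adjusted permutation p = 0.0535). With the rRNA rows left out of the total it was 6.64% ± 1.29 in EGME0 and 12.4% ± 3.38 in EGME75, higher in 10 of 10 (adjusted permutation p = 0.00051). EGME50 replicate 36 had an otherRNA share of 13.8%, and 4.26% with near copies counted once.

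**Figure D4:**
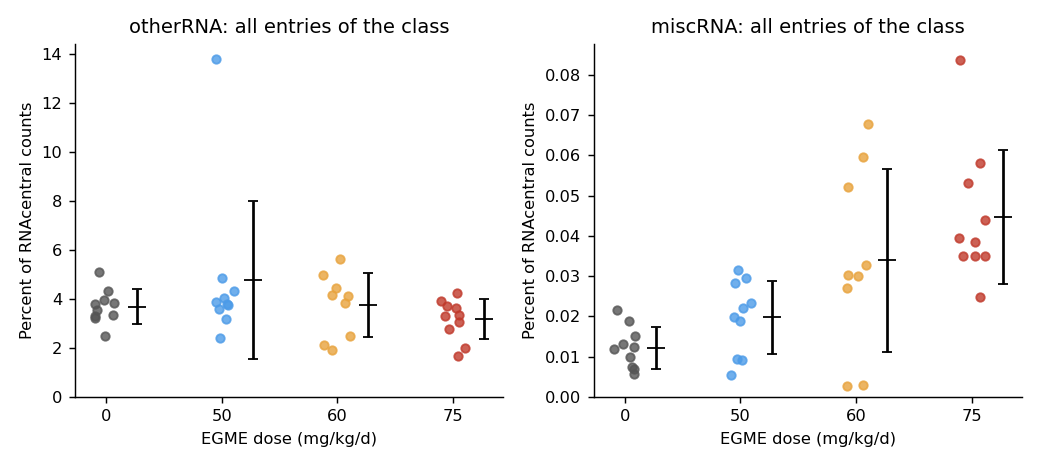
Percent of RNAcentral counts held by all otherRNA entries (left) and all miscRNA entries (right) in each library by dose; points are males and the marks beside them mean ± SD. The miscRNA share of every 75 mg/kg/d library lies above every control, while the otherRNA shares overlap and 1 library at 50 mg/kg/d stands at 13.8%.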

How the data were processed

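Small RNA was sequenced from sperm of 39 males (10 ng of RNA per library, Ion total RNA-seq kit, per the labels' protocols). The authors deposited whole-number counts of sense reads per RNAcentral entry, and the miRNA counts used for the marker lists. FastQC, Bowtie and DESeq2 are named in the submitters' processing notes, with no versions, and the treatment of reads that match several entries is not given in the sources used here. Groups came from the titles and treatment labels. All deposited columns matched a sample (unmatched: 0).

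The 200 members and the marker lists were chosen with earlier results of these data known. All 39 libraries were fitted together in edgeR 4.0.16 (R 4.3.3): TMM scaling, filterByExpr by group, robust quasi-likelihood tests of each dose against EGME0 and of a slope on dose, with Benjamini-Hochberg adjustment over the 2757 entries that passed the filter and a threshold of 0.05. They held 98.7% of the counts. SE is the absolute log2 fold change divided by the square root of F, an approximation. Library totals ran from 98123 to 12856657, so an entry near 10 CPM rests on few counts in the shallowest library. Each library was 1 male, so p-values measure the spread between males. Class shares were tested with 100000 permutations, exact where a group had 9 males. The script was tested on simulated data.

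Entries named were, in each class, the 5 with the largest mean share, and in each comparison the 3 highest and 3 lowest fold changes past the threshold among entries averaging 10 or more counts over the libraries; entries 13, 33, 35, 47, 48, 90, 91, 92, 100, 101, 121, 132, 137, 172 and 175 were named for their counts or matches after their values had been seen. Identifiers are printed for entry 1, 2 entries that rose and 2 that fell, because the files give no names. Alternatives were RLE factors, library totals alone, no filter, identical rows collapsed, chip as a block, DESeq2 1.42.0, other forms of the share, near copies counted once (added after the data had been seen) and leaving out each library.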

Additional observations from a re-analysis of the deposited data

Results flagged for a closer look

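Within each group, the highest and the lowest library of each named entry and of each class share were compared with the rest by Dixon's criterion, in 84 groups of values. It found 30 values in 15 libraries, all of them the highest of their group. The criterion's chance rate of about 1 in 20 groups assumes normally distributed values. Whether the CPM and shares were so distributed was not tested, so the 30 values cannot be read as an excess over that rate. Near copies repeat each other, so these are not 30 separate findings.

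Entry 2 and its near copies 3 and 4 stood at 442 CPM in EGME0 replicate 18 (next 204), at 16100 CPM in EGME50 replicate 36 (next 1320) and at 6370 CPM in EGME60 replicate 22 (next 2000). Entry 83 had its highest values in 2 of the same libraries, with 223 CPM in EGME50 replicate 36 (next 21.3) and 63.0 CPM in EGME60 replicate 22 (next 23.2). The otherRNA share of EGME50 replicate 36 was 13.8% (next 4.84%).

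Among miscRNA entries, entry 25 stood at 80.6 CPM in EGME0 replicate 9 and entry 29 at 339 CPM in EGME75 replicate 39. Entry 34 stood at 151 CPM in EGME0 replicate 1 and at 205 CPM in EGME75 replicate 39.

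Of the otherRNA entries that rose, entry 57 stood at 20.3 CPM in EGME50 replicate 12, and entry 59 at 3.83 CPM in EGME0 replicate 34 and 499 CPM in EGME75 replicate 24 (next 102), the library with the fewest counts. Entry 108 stood at 1.86 CPM in EGME0 replicate 26 and entry 139 at 0.483 CPM in EGME0 replicate 1, the only control library with a count of it. Entry 183 stood at 1.45 CPM in EGME0 replicate 1 and 6.42 CPM in EGME50 replicate 12.

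Of the entries that fell, entry 87 stood at 197 CPM in EGME0 replicate 2 (next 54.3) and 51.8 CPM in EGME60 replicate 5. Entries 156 and 160 shared both of their libraries: entry 156 stood at 48.6 CPM in EGME60 replicate 13 and 6.12 CPM in EGME75 replicate 16, and entry 160 at 23.2 CPM and 11.9 CPM there. Entry 166 stood at 13.4 CPM in EGME60 replicate 30.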

How the results depend on the processing

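No paired analysis was possible because no replicate number was shared between groups. Counts of calls changed with the filter, the scaling, the chip block and single libraries, and apart from the number of entries tested the cause was not tested. The RNAcentral entries called (42 at EGME50, 575 at EGME60, 1041 at EGME75, 766 for the slope) became 345, 2348, 3316 and 4887 with no filter, which tests more entries; 1857 at EGME75 and 1205 for the slope with RLE factors; 1974 and 1566 with DESeq2; and 0 at EGME50 and 671 at EGME75 with chip as a block. Leaving out 1 library gave 12 (without EGME50 replicate 12) to 95 (without EGME50 replicate 27) at EGME50.

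Among otherRNA members, higher calls at EGME50 went from 10 to 0 with the chip block and from 2 (without EGME50 replicate 36) to 13 with 1 library left out, and those at EGME60 from 46 to 30 with library totals. Lower calls at EGME60 went from 0 to 9 (RLE), 6 (totals), 1 (chip), 24 (DESeq2) and 0 to 3 (1 library left out, 3 without EGME60 replicate 13). Lower calls at EGME75 went from 25 to 99 (RLE), 70 (totals), 3 (chip), 7 (no filter), 103 (DESeq2) and 5 to 42 (1 library left out). Lower slopes went from 21 to 51, 42, 2, 1 and 70 in the same order and 3 (without EGME0 replicate 1) to 32 (without EGME50 replicate 3).

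Entry 1 at EGME60 turned from 0.34 to −0.34 (RLE, DESeq2), −0.65 (totals) and −0.0676 (chip). Entry 8 at EGME50 turned from 0.05 to −0.16 (RLE, DESeq2), −0.0609 (totals) and −0.0878 (chip); at EGME60 from 0.76 to −0.54 (totals); and in slope from 0.16 to −0.64 (RLE, DESeq2), −0.94 (totals), −0.0698 (chip) and −0.0206 (no filter). Entry 166 at EGME50 turned from −0.29 to 0.17 (chip). With 1 library left out, entry 1 ran from −0.40 to 0.0194 at EGME50, −0.0740 to 0.64 at EGME60 and −0.36 to 0.15 in slope, and entry 8 from −0.29 to 0.21, −0.0376 to 1.17, −0.38 to 0.0872 at EGME75 and −0.15 to 0.49 in slope. None of these was past the threshold in the reported fit. Over all leave-one-out fits of named entries, 1804 kept direction and side of the threshold, 31 lost the call, 4 gained it and 23 turned.

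The otherRNA share difference at EGME50 turned from 1.08 to −0.0672 percentage points with near copies counted once, and ran from 0.0772 (without EGME50 replicate 36) to 1.34 with 1 library left out. At EGME60 it turned from 0.0563 to −0.108 (distinct patterns only), −0.772 (near copies once) and −0.414 (chip), −0.0443 as a log2 ratio, and ran from −0.180 to 0.287. At EGME75 it went from −0.522 to 5.76 without rRNA in the total and to −1.40 with near copies once. The miscRNA share at EGME60 was no longer called as a log2 ratio (0.98, adjusted permutation p = 0.218), and its difference at EGME50 ran from 0.00621 to 0.00910 with 1 library left out. Depth limits the sparse entries: the shallowest library held 98123 counts.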

Other observations

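Beyond the 5% limit, another 19 distinct entries had counts within 15% of a row of a named class, a wider limit chosen after the data had been seen. The nearest row was a long noncoding RNA for 15 of them and an rRNA for 4. Entries 90, 91 and 92, near long noncoding RNA rows, had log2 fold changes of 5.28, 5.82 and 5.87 at EGME75 and were called higher, while entries 132 and 172 had −1.26 and −1.43 and were called lower.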
